A study of Homo sapiens with 3 samples.

Results

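The Notch receptors and their canonical ligands, with the target gene HES1, were described in cells of MDA-MB-231, an established human line from a triple-negative breast tumour, in which p53 carries the missense mutation R280K. The 10 genes, of 22824 in all, were chosen by name: the receptors NOTCH1, NOTCH2, NOTCH3 and NOTCH4, the Jagged ligands JAG1 and JAG2, the Delta-like ligands DLL1, DLL3 and DLL4, and HES1. The count of a gene was that of its transcript record with the largest total. RNA was sequenced from 3 biological replicates of 1 group, cells given a control siRNA at 50 nM in repeated transfections and harvested 48 h after the last of them. There is no second group to compare, so the results are levels and their spread. Each replicate is a culture of the same line with 1 library. The p-values measure the spread between these libraries beyond the noise of independent counts. In that spread, culture and library preparation cannot be told apart. The counts appear to hold both mates of a read pair, so the main test overstates the spread beyond counting noise.

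Notch signalling passes between neighbouring cells. A ligand on one cell binds a receptor on the next, endocytosis of the ligand exposes the receptor to proteases, and the released intracellular domain enters the nucleus, where it joins the DNA-binding protein RBPJ and coactivators of the Mastermind family to switch on genes of the HES and HEY families. In the breast epithelium the pathway takes part in the choice between luminal and basal cell fate, and JAG1 has been studied in breast cancer as a ligand of tumour cells in bone metastasis.

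HES1, the textbook target, carries paired RBPJ sites upstream of its start. The 250 bases before the annotated start (RefSeq, build GRCh38.p14) are shown for HES1 and, as comparisons, for HES4, the next most abundant gene of its family in these cells, and HES5, which had no counts. They are written 5′ to 3′ on the strand of the gene, and capitals mark the core of the RBPJ motif, TGGGAA, or its reverse complement TTCCCA. The windows lie at chr3:194135898-194136147 on the plus strand for HES1, at chr1:1000098-1000347 on the minus strand for HES4 and at chr1:2530264-2530513 on the minus strand for HES5.
HES1: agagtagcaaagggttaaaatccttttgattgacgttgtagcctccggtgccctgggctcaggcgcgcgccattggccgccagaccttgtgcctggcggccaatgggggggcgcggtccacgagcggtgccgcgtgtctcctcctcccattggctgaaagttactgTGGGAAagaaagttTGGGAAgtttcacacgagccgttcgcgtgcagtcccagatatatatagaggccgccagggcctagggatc
HES4: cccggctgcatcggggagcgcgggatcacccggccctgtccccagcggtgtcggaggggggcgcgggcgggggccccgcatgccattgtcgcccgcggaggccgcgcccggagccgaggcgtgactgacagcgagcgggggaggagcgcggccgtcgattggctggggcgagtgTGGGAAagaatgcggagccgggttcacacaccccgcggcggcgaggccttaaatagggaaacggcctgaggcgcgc
HES5: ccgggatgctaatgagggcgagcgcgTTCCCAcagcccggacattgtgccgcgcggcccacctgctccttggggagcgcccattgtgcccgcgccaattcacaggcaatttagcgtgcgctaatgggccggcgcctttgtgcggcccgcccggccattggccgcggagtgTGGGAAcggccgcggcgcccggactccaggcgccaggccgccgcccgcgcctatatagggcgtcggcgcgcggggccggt

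HES1 held the core at 2 places in the same orientation, beginning at positions -84 and -70 relative to the start. HES4 held it once, at -76, and HES5 held it at 2 places in opposite orientations, at -224 and -80. On either strand, the core was in the window of 6 of the 9 HES and HEY genes with an entry, and 3 of them had 2 or more matches. Of all 35116 windows of 250 bases in the table, 20.8% held it at least once and 2.90% at least 2 times. None of the 7 receptor and ligand genes with an entry held it (NOTCH1, NOTCH2, NOTCH3, NOTCH4, JAG1, JAG2 and DLL4), and DLL1, DLL3 and HEY1 had no entry. A match of letters is a description and shows no binding. Sites spelled otherwise were not searched for, so the 2 matches in HES1 need not be its paired sites.

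The gene totals were 67516522 counts in replicate 1, 83454912 in replicate 2 and 53621827 in replicate 3. Levels are given in TPM, which corrects for both transcript length and depth. A gene was called detected when every library reached 1 CPM, a unit that corrects for depth alone. Of 10 markers set for the labelled line, 7 were detected. The mesenchymal filament gene VIM averaged 4559 ± 176 TPM and CD44 169 ± 3.81 TPM (SD, n = 3). The epithelial genes KRT8, KRT18 and EPCAM averaged 747, 599 and 17.7 TPM, the luminal factor gene GATA3 4.01 TPM and ERBB2, the gene of the receptor HER2, 28.8 TPM. Not detected were the hormone receptor genes ESR1, with 3, 3 and 1 counts, and PGR, with 23, 30 and 19, and the E-cadherin gene CDH1, at 0.606 ± 0.232 TPM. In bulk RNA, fewer cells with a transcript and less transcript per cell cannot be told apart. Of the 10 genes, 5 were detected (JAG1, NOTCH2, HES1, NOTCH1 and JAG2), against 55.4% of all genes, so the share detected was close to the background. At 0.5 CPM 6 were detected (58.4% of all genes) and at 5 CPM 4 were (47.0%). Levels ran from 170 TPM for JAG1 to no counts at all for DLL3.

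**Figure D1:**
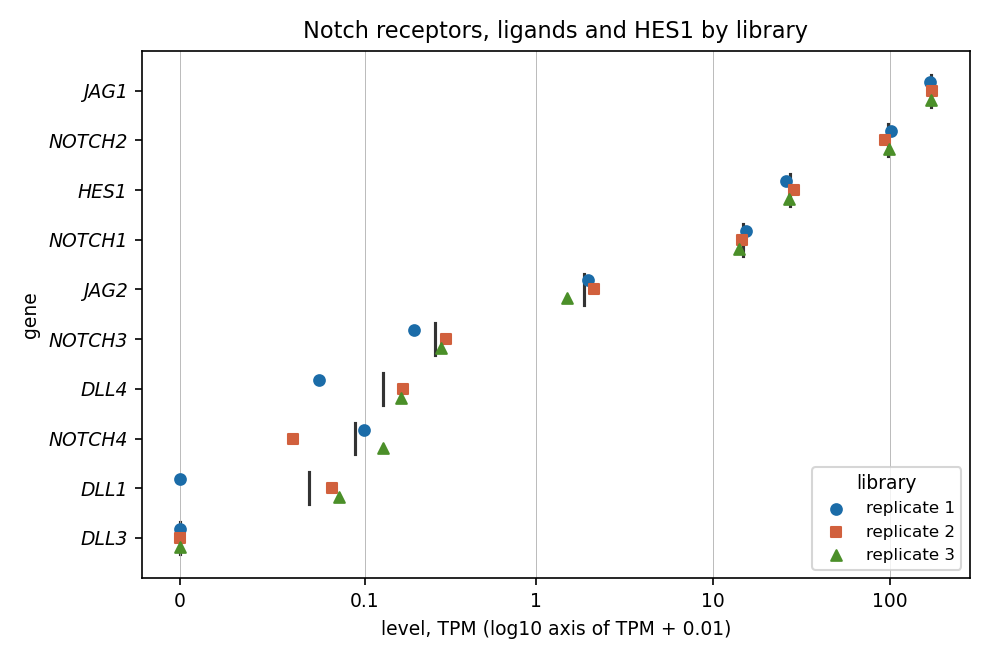
Level of each receptor, each ligand and HES1 in the 3 control siRNA libraries. Genes run down the page by mean level, the horizontal axis is TPM on a log10 axis of TPM + 0.01, points are libraries and vertical bars are means. The libraries of JAG1, NOTCH2, HES1 and NOTCH1 nearly coincide, while DLL4, NOTCH4 and DLL1, with at most 21 counts in a library, spread widely.

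NOTCH2 (Entrez 4853, chromosome 1) was the main receptor transcript. It held 32819, 38112 and 25492 counts, or 100.9, 93.5 and 98.3 TPM, in replicates 1, 2 and 3. The libraries stayed within 1.08-fold of each other, and the mean of 97.6 ± 3.77 TPM (SD, n = 3) lay above 91.3% of genes. NOTCH2 made up 86.5%, 86.2% and 87.1% of the summed receptor TPM. A shorter NOTCH2 record held 0.392, 0.392 and 0.376 of the counts of the long one. NOTCH2NL, a partial copy of NOTCH2 with near-identical sequence, was counted separately and held 4080, 6047 and 3368 counts, 0.124, 0.159 and 0.132 of those of NOTCH2. How reads shared by both genes were assigned is not stated, so the level of NOTCH2 is uncertain by an unknown amount. NOTCH2NL, on a shorter transcript, averaged 81.8 TPM.

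NOTCH1 (Entrez 4851, chromosome 9), the receptor best known from T-cell development and leukaemia, was the only other detected receptor. It held 15.5, 14.6 and 14.1 TPM in replicates 1, 2 and 3, on 4117, 4868 and 2986 counts, a mean of 14.7 ± 0.713 TPM (SD, n = 3). NOTCH2 exceeded it 6.51-, 6.40- and 6.98-fold within the 3 libraries, so their ranges were far apart. NOTCH1 accounted for 13.1 ± 0.520% of the receptor TPM.

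NOTCH3 (Entrez 4854, chromosome 19), the receptor of vascular smooth muscle and pericytes, had 49, 95 and 56 counts, or 0.198, 0.306 and 0.284 TPM, with replicate 1 lowest. NOTCH1 exceeded it 78.2-, 47.7- and 49.7-fold. Replicates 2 and 3 of NOTCH3 passed 1 CPM, at 1.14 and 1.04, but replicate 1 did not, at 0.728 CPM. Among 8 markers of mural cells, the cell class in which NOTCH3 is typical, 5 were detected, with a summed level of 17.4 to 17.6 TPM over the libraries. These were CSPG4 at 6.78, ACTA2 at 4.94, MYH11 at 2.39, PDGFRB at 1.87 and RGS5 at 1.002 TPM, while KCNJ8 averaged 0.343 and CNN1 0.161 TPM and the muscle filament gene DES had 1, 3 and 0 counts. Their part in the NOTCH3 level was not tested.

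NOTCH4 (Entrez 4855), the receptor of endothelial cells, lies in the MHC region on chromosome 6 and had 7 records in the files, all with the same identifier. The record with the largest total held 19, 8 and 20 counts, or 0.0987, 0.0331 and 0.130 TPM, with replicate 2 lowest. Counts differed among the 7 records, from 8 to 19 in replicate 1, from 0 to 15 in replicate 2 and from 0 to 20 in replicate 3, and their sums were 94, 58 and 56. With the records summed, NOTCH4 averaged 0.356 TPM and lay above NOTCH3, at 0.256 TPM in the same table, so the order of these receptors depends on how the copies are counted. Of 9 endothelial markers 4 were detected, with a summed level of 175 to 192 TPM, nearly all of it from the junction gene ESAM (167 to 185 TPM). The other detected ones were the receptor genes TIE1 at 5.30 and KDR at 1.15 TPM and the adhesion gene PECAM1 at 1.06 TPM. Of those not detected, ERG had no counts, CDH5 had 0, 3 and 4, VWF had 12, 13 and 5, CLDN5 had 12, 9 and 3, and TEK had 7, 10 and 10. Their part in the NOTCH4 level was not tested.

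JAG1 (Entrez 182, chromosome 20) was nearly the whole of the ligand transcripts. It held 28458, 36585 and 22994 counts, or 167.8, 172.1 and 169.9 TPM. The libraries lay within 1.03-fold of each other, the narrowest range of the 9 genes with counts. Its mean of 169.9 ± 2.13 TPM (SD, n = 3) lay above 95.3% of genes, and it made up 98.8%, 98.6% and 99.0% of the summed ligand TPM. JAG2 (Entrez 3714, chromosome 14), its paralogue, had 1.97, 2.13 and 1.497 TPM, with replicate 3 lowest, on 328, 445 and 199 counts. JAG1 thus exceeded JAG2 85.2-, 80.8- and 114-fold. The gap was smaller with counts summed over all records of each gene, at 85.7 TPM for JAG1, which has a single record, and 1.87 TPM for JAG2. JAG1 kept the same counts there, and its TPM fell because the library totals were larger. The scaled size of replicate 1 was 134713583 with summed records and 67274676 without. The 2 JAG2 records held nearly the same counts, the shorter 0.988 to 0.990 of the longer, so their sum may count the same reads more than once.

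The Delta-like ligands were at or near 0. DLL4 (Entrez 54567, chromosome 15), the ligand of sprouting endothelium, had 5, 21 and 13 counts, or 0.0510, 0.171 and 0.166 TPM, with replicate 1 lowest. DLL1 (Entrez 28514, chromosome 6), a ligand active in somite formation and in the mammary gland, had 0, 7 and 5 counts, or 0, 0.0616 and 0.0692 TPM, and was thus seen in replicates 2 and 3 alone. DLL3 (Entrez 10683, chromosome 19), a divergent ligand that inhibits Notch within the cell and is known from neuroendocrine tumours, had no counts on either of its records, which allows a level of up to 0.0901, 0.0719 or 0.113 TPM in replicates 1, 2 and 3. The limit stands for 6 counts, that is 3 pairs if each mate was counted, and covers counting error only. Of 8 neuroendocrine markers 1 was detected, the granin gene SCG2 at 7.59 ± 1.44 TPM (SD, n = 3), the summed level was 6.90 to 9.99 TPM, and INSM1 and NEUROD1 had no counts. Of 9 leukocyte markers 2 were detected, LYZ and CD14, the summed level was 15.4 to 19.1 TPM, and ITGAM had no counts.

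HES1 (Entrez 3280, chromosome 3), a transcriptional repressor that delays differentiation, had 1165, 1619 and 962 counts, or 25.9, 28.7 and 26.8 TPM, with replicate 2 highest. Its mean of 27.1 ± 1.43 TPM (SD, n = 3) lay between NOTCH2 and NOTCH1, above 74.5% of genes.

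In the order of mean TPM, JAG1, NOTCH2, HES1, NOTCH1, JAG2, NOTCH3, DLL4, NOTCH4, DLL1 and DLL3, 6 of the 9 pairs of neighbours had ranges over the libraries that did not overlap. The closest of the separated pairs were NOTCH3 and DLL4, whose lowest and highest libraries were 0.198 and 0.171 TPM. DLL4 and NOTCH4, NOTCH4 and DLL1, and DLL1 and DLL3 did not differ beyond their spread. The first 6 places were the same in each library. In CPM, which leaves length out, NOTCH2 (473) preceded JAG1 (430) and NOTCH1 (58.3) preceded HES1 (18.2). The summed ligand TPM was 1.45, 1.61 and 1.52 times the summed receptor TPM. In CPM the ligands summed to less than the receptors, 428 to 445 against 517 to 550.

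HES1 was also the most abundant of the 10 HES and HEY genes, with 61.2%, 65.4% and 66.0% of their summed TPM. HES4, a related repressor, was next at 9.36, 8.57 and 7.09 TPM, followed by HES6, which opposes HES1, at 2.84 ± 0.335 TPM (SD, n = 3). HEY1, HEY2 and HEYL, the targets best known from vessels and heart, averaged 1.24, 0.158 and 0.353 TPM. HES2 averaged 1.03 TPM and HES7, the segmentation clock gene, 1.15 TPM. HES3 had a single count in replicate 2 and HES5, the neural progenitor gene, had none. In all, 5 of the 10 were detected (HES1, HES4, HES6, HEY1 and HES2). The number of exact matches to the RBPJ core did not order these levels: HES1 and HES5, with 2 each in the sequences shown, were the highest and the lowest. Sites spelled otherwise were not counted.

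**Figure D2:**
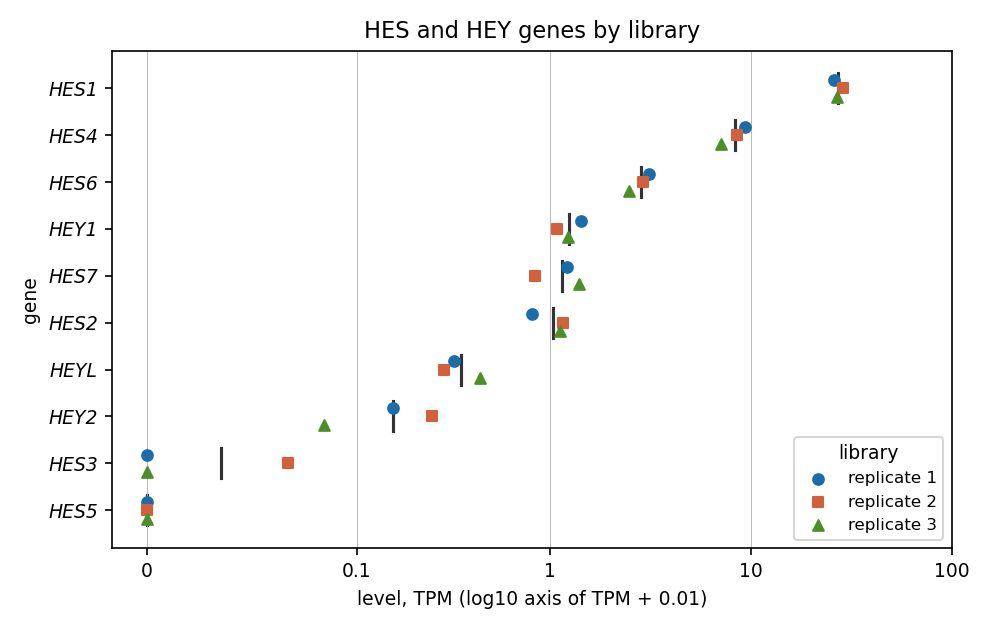
Level of the 10 HES and HEY genes in the 3 control siRNA libraries, on the same axis as the plot of receptors and ligands. HES1 lies above HES4 in every library (25.9 to 28.7 against 7.09 to 9.36 TPM), and HES5 is at 0.

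Beyond the 10 genes, 79 of the 95 other genes in 9 lists of the pathway (83.2%) were detected, against 55.4% of all genes. The lists were chosen with earlier results of these data known, and all genes include 4085 without a count. The higher share is therefore a description of the chosen lists and no result about the pathway. Each gene that sugar-coats or cleaves the receptors was detected. Of the glycosyltransferases, POFUT1, which adds the first fucose to the EGF repeats, averaged 75.7 ± 1.72 TPM (SD, n = 3). Among the Fringe enzymes, which extend that fucose and shift the receptor's preference between Delta-like and Jagged ligands, LFNG was highest at 61.9 ± 3.06, RFNG stood at 23.7 ± 1.43 and MFNG at 2.48 ± 0.242 TPM. POGLUT1, which adds glucose, averaged 10.7 ± 0.110 TPM.

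The proteases were led by the gamma-secretase subunits NCSTN at 156.5 ± 2.28 TPM and APH1A at 155 ± 2.90 TPM (SD, n = 3). APH1B, the alternative to APH1A in that complex, was lowest of the 9 at 6.21 ± 0.198 TPM. PSEN2, which encodes a catalytic subunit, averaged 20.4 ± 1.19 TPM. Of the sheddases that make the preceding cut, ADAM10 averaged 53.9 ± 3.28 and ADAM17 35.7 ± 0.394 TPM, and FURIN, which processes the receptor on its way to the surface, 31.5 ± 1.17 TPM.

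Ligand endocytosis had 7 of 8 genes detected, from the dynamin gene DNM2 at 246 ± 11.6 TPM to NEURL (NEURL1), the exception, at 0.136 ± 0.0437 TPM (SD, n = 3). MIB1, the ubiquitin ligase that most ligands require, averaged 40.3 ± 1.35 TPM. In the nucleus all 10 genes of the activation list were detected, among them RBPJ at 70.2 ± 2.19, SNW1 at 127 ± 4.31, EP300 at 28.7 ± 1.99 and the Mastermind genes MAML1, MAML2 and MAML3 at 27.4 ± 1.39, 15.4 ± 0.424 and 3.38 ± 0.190 TPM. Of 16 corepressor genes and competitors 13 were detected, among them HDAC1 at 326.5 ± 3.14, HDAC2 at 222 ± 10.0 and CTBP1 at 107 ± 5.60 TPM, while RBPJL, the paralogue of RBPJ, had no counts and TLE4 had 6, 2 and 0.

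Of 13 genes of receptor trafficking and turnover 11 were detected, with the ubiquitin ligase ITCH at 108.5 ± 4.56, NUMB, which removes the receptor from the surface, at 60.7 ± 1.72, SEL1L at 57.9 ± 3.63 and CBL at 29.2 ± 1.71 TPM (SD, n = 3). DTX1, itself a Notch target in lymphocytes, had 0, 0 and 6 counts and DTX4 averaged 0.249 TPM. Of 9 other proteins reported to bind the receptors 6 were detected, the highest being MFAP2 at 28.98 ± 0.867 and EGFL7 at 16.6 ± 3.73 TPM, and DLK1, CNTN6 and MFAP5 had no counts. Of 12 further targets, known from various tissues and under many other inputs, 10 were detected, with CCND1 at 390 ± 15.8, CCND3 at 144.5 ± 2.90, SOX9 at 79.9 ± 0.806 and MYC at 60.8 ± 1.97 TPM. The lymphoid targets PTCRA and IL7R were lowest, at 0.0290 and 0.184 TPM.

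**Figure D3:**
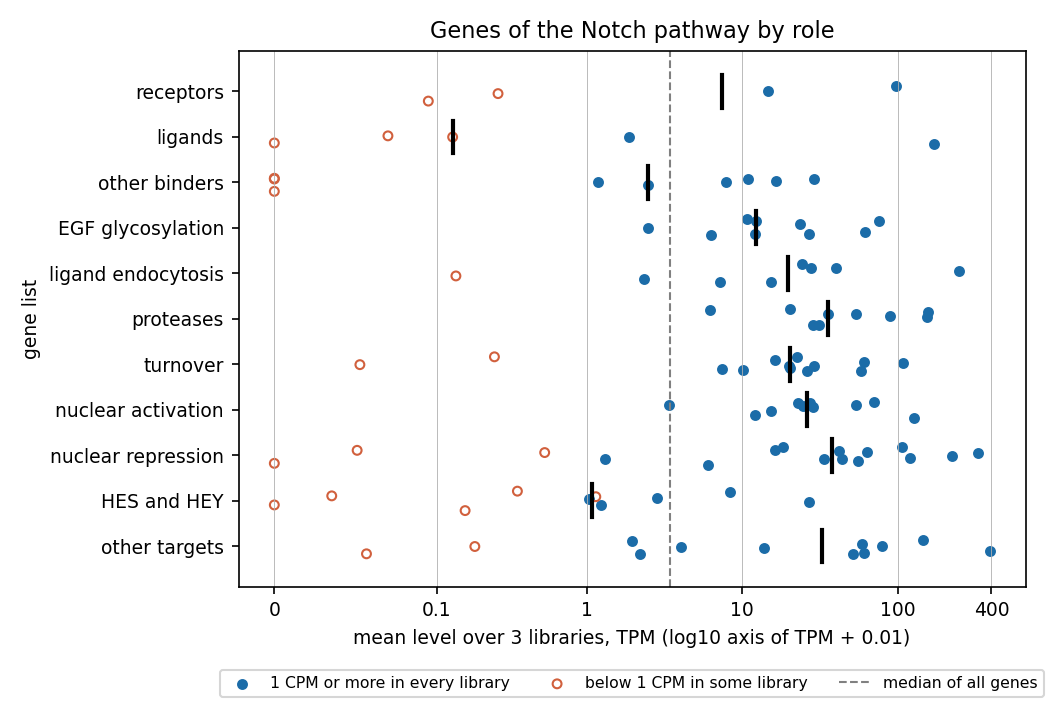
Mean level over the 3 libraries of each gene in 11 lists of the Notch pathway, in TPM on a log10 axis of TPM + 0.01. Filled points were detected at 1 CPM in every library, open points were not, black bars are list medians and the dashed line is the median of all genes (3.46 TPM). Medians ran from 0.129 TPM for the ligands to 37.8 TPM for the corepressors.

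Of the 10 genes, 6 had enough counts to be tested for differences between the libraries. Among them, 5 (NOTCH2, JAG1, JAG2, NOTCH1 and HES1) varied beyond the noise of independent counts, against 52.7% of all genes tested. The test was the edgeR deviance against a chi-square, Benjamini-Hochberg adjusted over 14442 genes. Most differences were small. Adjusted p was 1.25e-15 for NOTCH2 with a range of 1.08-fold, 3.25e-05 for JAG1 with 1.03-fold, 0.000209 for JAG2 with 1.42-fold, 0.000694 for NOTCH1 with 1.10-fold and 0.0169 for HES1 with 1.11-fold. For NOTCH3, with 1.55-fold, it was 0.0557. Since the counts appear to hold both mates of a read pair, the deviance was also divided by 2. Of the 6, 4 then varied, against 28.2% of all genes, and HES1 no longer did (adjusted p = 0.196). When cultures were allowed to vary by a coefficient of 0.05, edgeR called 0 of the 6 (2 at an unadjusted p under 0.05, JAG2 and NOTCH3), against 1.15% of all genes, and at 0.1 it called 0 (0 unadjusted), against 0.125%. With no filter on low counts 8 genes were called, DLL1, DLL4 and NOTCH4 in addition, against 44.1% of all genes. With counts summed over all records of a gene 7 were called (62.4% of all genes), NOTCH3 and NOTCH4 in addition, and with identical copies alone summed 6 were (53.0%), NOTCH4 in addition.

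Some of these differences moved with base composition. Across all tested genes, those of high GC content were higher in replicate 1 and lower in replicate 3. NOTCH1, whose transcript is 62.9% GC, deviated from its mean by 0.07, 0.0024 and -0.07 log2 units (of CPM + 0.5, which understates changes of low genes) in replicates 1, 2 and 3, where 1325 genes of like GC content (within 2 percentage points) had medians of 0.05, 0.03 and -0.08. With offsets for GC content and length, 4 of the 6 were called, against 37.8% of all genes, namely NOTCH2, JAG1, JAG2 and NOTCH3. NOTCH1 no longer varied (adjusted p = 0.866, from 0.000146 to 1.0 over its 12 alternatives), nor did HES1 (0.0591). GC content and length were corrected together, so their parts cannot be told apart. JAG2, at 64.0% GC, deviated by 0.08, 0.20 and -0.28, where genes of like GC had 0.05, 0.03 and -0.09. It still varied with the offsets (adjusted p = 0.00961, from 1.31e-08 to 1.0 over its alternatives), but not without replicate 3 (0.391). NOTCH3, at 63.1% GC, deviated by -0.25, 0.17 and 0.08, against the direction of genes of like GC in replicates 1 and 3, and was called with the offsets (adjusted p = 0.0319, from 0.0319 to 1.0 over its alternatives).

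NOTCH2, JAG1 and HES1, at 49.4%, 49.6% and 49.9% GC, lay where the medians of genes of like GC were within 0.01 of 0 in every library. NOTCH2 was lowest in replicate 2, at -0.05, where JAG1 and HES1 were highest, at 0.03 and 0.09. NOTCH2NL, the partial copy of NOTCH2, was also highest there, at 60.65, 72.53 and 62.52 CPM in replicates 1, 2 and 3. The part of read assignment between these copies in the variation of NOTCH2 was not tested. The variation of JAG1 rested on replicate 2: without that library its adjusted p was 0.5997 (1.68e-11 to 1.0 over its 12 alternatives). HES1 was called neither without replicate 1 (0.0899) nor without replicate 2 (0.650), with 0.0144 to 1.0 over its alternatives, and NOTCH1 neither without replicate 1 (0.0632) nor without replicate 3 (0.0891). NOTCH2 was called with each library left out. With the offsets its adjusted p was 0.000662 (1.25e-15 without them) and that of JAG1 was 1.68e-11 (3.25e-05 without them). In all, 3 of the tested genes were called without replicate 1, against 37.8% of all genes, 3 without replicate 2, against 39.0%, and 4 without replicate 3, against 24.0%. With the offsets and the deviance divided by 2, JAG1 alone was called (adjusted p = 2.78e-05), against 12.5% of all genes. NOTCH2 then had an adjusted p of 0.0680.

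**Figure D4:**
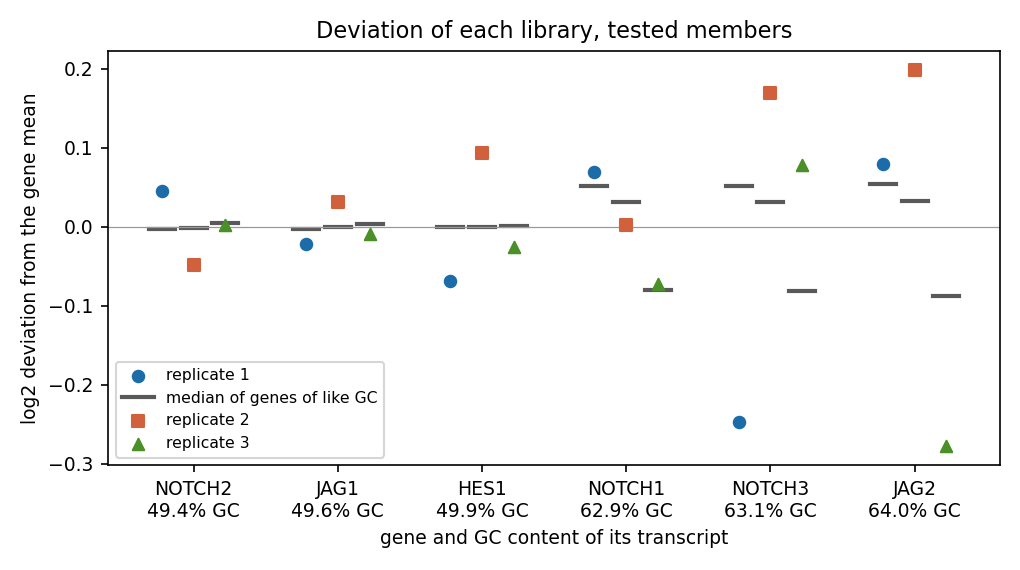
Deviation of each library from the mean of the gene, on the log2 scale of CPM + 0.5, for the 6 tested genes in order of GC content. Points are libraries and grey bars are the medians of genes within 2 percentage points of GC content. The bars are near 0 for NOTCH2, JAG1 and HES1 and run from 0.05 to -0.09 for the GC-rich NOTCH1, NOTCH3 and JAG2.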

How the data were processed

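Counts per RefSeq transcript record were deposited by the authors as whole numbers without normalization, 1 library per file. Tools named in the submitters' processing notes are TopHat2, Cufflinks and FastQC, with hg19 as build. Their versions, how reads were counted, the strand setting and the treatment of multiple hits are not given in the sources used here. Of 42269 records, 6937 lacked a gene name. An accession match gave 6318 of these a gene, and the remaining 619, left out, carried 0.952%, 0.959% and 0.944% of record counts. Lengths and GC content came from GENCODE 29 transcripts, by accession for 95.1% and by accession or gene for 98.8% of the 18739 genes with a count. Genes with 2 counts (711, 641 and 587) outnumbered those with 1 (487, 404 and 386), as when both mates are counted.

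TMM factors from edgeR 4.0.16 (R 4.3.3) scaled the libraries, with DESeq2 1.42.0 size factors as an alternative, and genes filtered with filterByExpr without groups. Variation was the deviance of an intercept-only fit with dispersion 0 against a chi-square, called at an adjusted p under 0.05. On simulated counts of 14637 genes the test recovered 78%, 86%, 98% and 100% of genes with a 1.25-, 1.5-, 2- and 3-fold change and made 9 false calls. The simulation held counting noise alone, with each change placed in replicate 2. It had no doubled mates, GC trend or spread between cultures, so its false calls do not carry over to these data. Tables and plots used Python 3.11.15, pandas 2.3.3 and matplotlib 3.10.9. The members and lists were chosen with earlier results of these data known. Genes named are the 10, all genes of lists of up to 10, and the 4 highest and 2 lowest of longer lists; values of some list genes are not reported here.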

Additional observations from a re-analysis of the deposited data

How the results depend on the processing

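The number of the 10 genes detected was 5 under each way of counting and scaling, 6 at 0.5 CPM or without replicate 1 and 4 at 5 CPM, and 72 to 88 of 105 pathway genes were detected against 84. Between 6 and 8 of 9 neighbouring pairs had separate ranges, 8 without replicate 1. The summed TPM of the 10 genes was 312, and 177 with counts summed over records, 304.5 with copies summed and 357.5 with the longest transcript; in CPM it was 985. NOTCH2 held 86.6% of the receptor TPM, 89.8% with summed records and 88.8% in CPM. JAG1 held 98.8% of the ligands, 97.8% with summed records. HES1 held 64.2% of its family, 48.7% with summed records. Records of a gene may hold the same reads, so summed records may count reads more than once. Summed records also enlarge the library totals, which lowers the TPM of genes with a single record at unchanged counts. The 5 genes varying between libraries became 8 with no filter on low counts, 0 with a coefficient of variation of 0.05 or 0.1 between cultures (edgeR; 2 and 0 at an unadjusted p under 0.05), 1 (JAG1) with offsets for GC content and length and the deviance divided by 2, an alternative chosen after seeing the data, and 3 to 4 with a library left out, where fewer samples are tested. For the others the cause was not tested. Among all genes, 7607 varied, and 4069 with the deviance divided by 2, 166 and 18 with coefficients of variation of 0.05 and 0.1, 1803 with offsets and the divided deviance, and 3539 without replicate 3. Depth limits DLL1, DLL4 and NOTCH4, with at most 21 counts in a library, and DLL3. No paired analysis was possible because the libraries form 1 group.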
